A study of Mus musculus with 20 samples.

Results

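The axon guidance genes described here are the 53 semaphorin, plexin, neuropilin, Eph receptor and ephrin genes of the mouse. They were chosen by name, among 21938 protein-coding genes of the annotation, as 20 semaphorins, 9 plexins, 2 neuropilins, 14 Eph receptors and 8 ephrins. Their data are the 147 ATAC-seq consensus regions, of 32120 in all, that the study's annotation assigned to a member, together with the peaks of every assay inside each gene body and 5 kb on either side of it. Of the 147 regions, 125 lay inside these windows and 22 outside, the latter tied to a member by the annotation alone. No 2 of these windows overlapped.

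Cells of the Nkx2.1 lineage, labelled by a fluorescent reporter that Nkx2.1-Cre switches on, were sorted from the neocortex of pups at postnatal day 7 or 8. WT pups carried Nkx2.1-Cre and the reporter with intact Tcf4, and Tcf4 cKO pups carried the same Cre and reporter on a Tcf4f/f background, so that the bHLH transcription factor Tcf4 was lost in this lineage alone. Each genotype had 2 libraries, made from 50000 cells, for ATAC-seq and for each Cut&Tag target (H3K4me1, H3K27ac and H3K27me3), and Tcf4 occupancy was measured by anti-Flag Cut&Tag on 200000 nuclei in 2 libraries of a Tcf4-tag line, in which Tcf4 carries HA and Flag tags. Nkx2.1-Cre acts in the embryonic ventral forebrain, so each sort holds every cell type that lineage sends to the cortex, and fewer cells of a type cannot be told apart from a weaker signal per cell.

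Semaphorins are secreted, membrane-bound or GPI-anchored ligands that steer growing axons and migrating neurons, mostly by repulsion. Plexins are their signalling receptors, and the neuropilins are co-receptors that most class 3 semaphorins need. Eph receptors are tyrosine kinases that bind GPI-anchored (Efna) or transmembrane (Efnb) ephrins on neighbouring cells, and both partners can signal. In the developing forebrain both systems guide interneurons out of the ventral telencephalon and sort them from other migrating cells.

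The peak lists held 54159 to 72306 peaks per ATAC-seq library, 51507 to 72788 for H3K4me1, 22023 to 28410 for H3K27ac, 15082 to 19179 for H3K27me3, and 28602 and 16829 for Tcf4. Read numbers were not in the files, so depth beyond these counts is unknown. The lists measure no transcript and cannot show whether the floxed part of Tcf4 was lost, as peaks elsewhere in that gene (24 and 35 in WT, 21 and 23 in Tcf4 cKO by ATAC-seq) do not test it. All 8 interneuron markers examined had an ATAC-seq promoter peak in at least 1 library. Summed promoter peak heights over 8 markers overlapped between genotypes for interneurons (38.2 and 33.2 in WT, 39.7 and 30.8 in Tcf4 cKO) and for the oligodendrocyte lineage (29.1 and 26.1 against 28.5 and 25.7). Sums that did not overlap were those of projection neuron ATAC-seq (20.9 and 28.0 against 19.2 and 20.1), astrocyte H3K27ac (20.1 and 20.2 against 18.1 and 18.2) and, for H3K27me3, oligodendrocyte (5.08 and 7.34 against 9.45 and 9.19) and projection neuron markers (12.41 and 13.95 against 14.01 and 14.2). The microglia markers had promoter peaks at 7 and 6 of 8 genes in WT and at 4 and 3 in Tcf4 cKO, with summed heights of 42.2 and 34.8 against 26.3 and 19.7, while 7 of the 8 had no H3K27ac promoter peak in any library. The part of these differences in the values below was not tested.

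Accessibility at the guidance genes differed between genotypes at single sites, with higher and lower ones in like numbers. By the authors' mean log2 signal per genotype, 18 of the 147 regions were lower in Tcf4 cKO by more than 0.5 and 14 were higher. These are 12.2% and 9.52% of the members' regions, beside 12.6% and 8.38% of all 32120 consensus regions, so both shares sat near the background. With the differences centred on the median of all regions (-0.10), the split was 13 lower and 19 higher. The median difference was -0.04 over the members and -0.10 over all regions. The means are pooled values with no error, so these counts carry no test. Of the 52 members with a region, 7 had regions past the limit that were lower, 4 had higher ones, 6 had both (Ephb2, Plxna2, Sema3a, Sema5a, Sema6a and Sema6d) and 35 had neither. Plxnb3, a plexin of the B class, was the member without a consensus region, although all 4 ATAC-seq libraries had a promoter peak there of 4.39 to 6.91 fold enrichment.

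**Figure D1:**
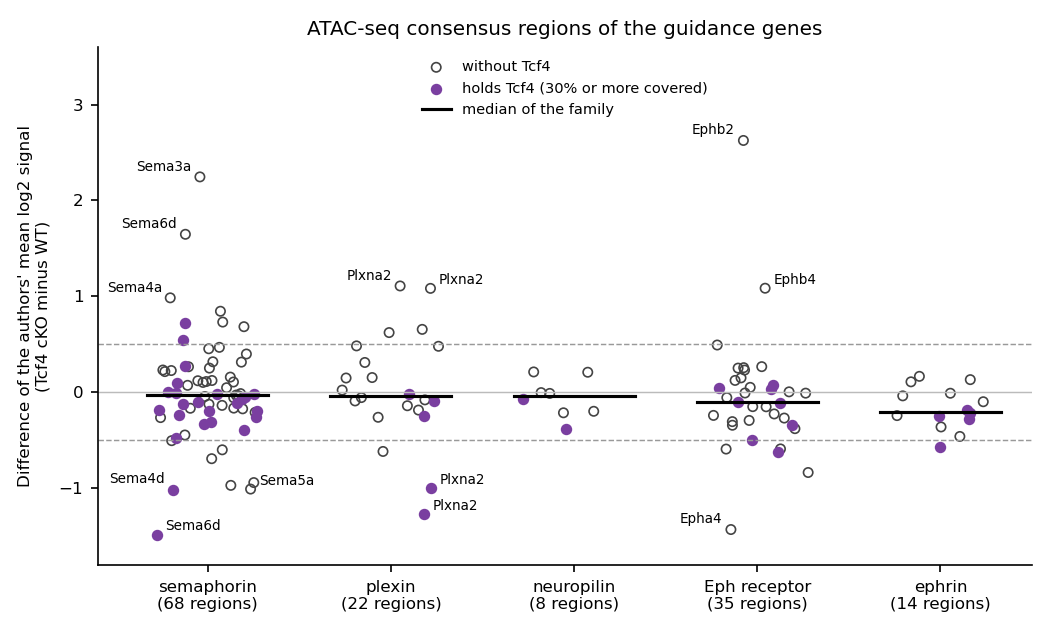
Difference of the authors' mean ATAC-seq signal (log2, Tcf4 cKO minus WT) for each of the 147 consensus regions, grouped by gene family on the horizontal axis. Filled points hold Tcf4, bars are family medians and dashed lines mark -0.5 and 0.5. Most regions lie between the dashed lines, the 6 largest falls include 4 regions with Tcf4, and the 6 largest rises include none. Of all consensus regions past 0.5, 1596 of 4042 lower and 132 of 2691 higher ones held Tcf4.

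Where a test across libraries was possible, 3 of the members' regions passed it. The highest MACS2 fold enrichment in each region, log2 and quantile-normalized, was compared by limma over the 30379 consensus regions with a peak in all 4 libraries, of which 136 belonged to members. At a Benjamini-Hochberg adjusted p under 0.05, 2 member regions fell and 1 rose, beside 0.777% and 0.586% of all regions fitted. At an unadjusted p under 0.05 the counts were 8 lower and 7 higher, or 11.0% of the members' regions beside 13.9% of all. The calls needed both WT libraries: without either of them no region of the genome passed. In that fit the remaining WT library is assumed to vary like the Tcf4 cKO pair. A single region compared 2 against 2 cannot go below an exact permutation p of 0.33.

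Among the semaphorins, Sema5a had the one region that fell by the test. In an intron of Sema5a (chr15:32433467-32434152), a transmembrane semaphorin, fold enrichment was 12.4 and 11.3 in WT and 6.12 and 5.67 in Tcf4 cKO. The genotypes did not overlap, and the region fell by 0.92 (SE 0.15) on the log2 scale with an adjusted p of 0.0249 by limma. H3K4me1 peaks there were 5.36 and 4.22 in WT and 3.80 and 3.82 in Tcf4 cKO, and no Tcf4 region covered it. Leaving out WT replicate 1 or 2 gave log2 differences of -0.80 and -1.04 with adjusted p of 0.237 and 0.209 by limma, and requiring a −log10 q of at least 5 gave 0.0507.

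Sema6d, a transmembrane ligand of class A plexins, had one of the largest negative and one of the largest positive differences. An intronic region (chr2:124429683-124430501) had fold enrichments of 9.90 and 9.90 in WT against 5.74 and 8.06 in Tcf4 cKO. Its difference in the authors' means was -1.48, the lowest of the 147 regions, and the adjusted p by limma was 0.268. H3K27ac peaks there were 4.61 and 4.75 in WT, absent in the first Tcf4 cKO library and 3.87 in the second. A different Sema6d region, 1.73 kb from a transcript start, had no peak in WT replicate 1, 4.55 in WT replicate 2, and 6.41 and 5.90 in Tcf4 cKO. The authors' means there differed by 1.65, with 4.65 in WT and 6.30 in Tcf4 cKO. The first region held Tcf4 over 94.0% of its length and the other held none.

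Sema3a, a secreted repellent that acts through Nrp1, had an intronic site with peaks in Tcf4 cKO and none in WT. At chr5:13547454-13547928 the Tcf4 cKO fold enrichments were 8.0 and 7.92, and the difference in the authors' means was 2.25. H3K4me1 was called there in all 4 libraries, from 4.63 to 5.98. Elsewhere in an intron of the gene, a region with 5.81 and 6.12 in WT had no peak in Tcf4 cKO replicate 1 and 4.22 in replicate 2, with a difference of -0.94. A merged H3K27me3 region found in Tcf4 cKO alone (2.81 and 2.62) touched this second site, which the peak of replicate 2 reached and that of replicate 1 did not.

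Sema4a and Sema4d, transmembrane semaphorins of the class that binds B plexins, had differences in opposite directions. At the Sema4a promoter ATAC-seq fold enrichment was 4.0 and 4.27 in WT and 5.66 and 7.11 in Tcf4 cKO, with no overlap, and the adjusted p was 0.0557. H3K27ac at this promoter was called in the Tcf4 cKO libraries alone (2.96 and 3.64). A region upstream of Sema4d (chr13:51816300-51817459) had 8.05 and 8.60 in WT and 7.14 and 6.02 in Tcf4 cKO. Its difference in the authors' means was -1.01, the adjusted p was 0.527, and H3K27ac peaks of 3.64 and 3.80 were called in WT alone. In an intron of Sema3d, a secreted semaphorin, H3K27ac was likewise called in WT alone (3.48 and 4.02), on a region whose difference in ATAC-seq means was -0.69.

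The authors' means and the peak heights did not always point the same way. In an intron of Sema6a, a ligand of plexins A, the heights were 6.63 and 7.43 in WT against 4.22 and 4.86 in Tcf4 cKO (adjusted p 0.0975 by limma), while the difference of the means was 0.45. A peak height is the strongest point of a region and the mean counts reads over its whole length.

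Plxna2, a receptor of class 3 and class 6 semaphorins, had 4 of the 12 regions with the largest differences. In an intron (chr1:194742686-194743569) fold enrichment was 7.86 and 9.01 in WT and 6.19 and 5.97 in Tcf4 cKO, without overlap, and the difference in the means was -1.27 (adjusted p 0.230). A region 411 kb upstream had 8.71 and 9.54 against 6.64 and 8.82, which overlapped, with a difference of -1.0 (adjusted p 0.790). These regions held Tcf4 over 76% and 93.3% of their length. Of the other regions, an intronic one was higher by 1.08 in the authors' means, and one 388 kb upstream was higher by 1.11. Their WT means were low, at 4.73 and 4.37, beside a median of 7.02 over the members' regions. They held no Tcf4, and each had a peak in WT replicate 2 and in both Tcf4 cKO libraries but none in WT replicate 1.

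Plxna1, another class A plexin, had the one guidance region that rose by the test. At an exon (chr6:89333982-89334496) fold enrichment was 3.79 and 3.81 in WT and 6.02 and 6.07 in Tcf4 cKO. The genotypes did not overlap, the log2 difference was 0.74 (SE 0.14) and the adjusted p was 0.0355. The call was lost with absent peaks set to the lowest value of their library (adjusted p 0.0847 by limma) and without WT replicate 1 or 2 (0.237 and 0.212). At Plxna4, a co-receptor partner of neuropilins, an intronic region of the window had no peak in WT replicate 1, 6.30 in WT replicate 2, and 7.47 and 6.05 in Tcf4 cKO. The authors' means there differed by 1.88, yet an H3K4me1 peak on it (3.36 and 3.20) was called in WT alone.

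Among the Eph receptors, Ephb2, which binds B-class ephrins, had a lower and a higher site within its introns, 4551 bp apart from centre to centre. At the first (chr4:136711840-136712663) fold enrichment was 8.20 and 8.41 in WT and 4.32 and 4.80 in Tcf4 cKO, without overlap. The region fell by 0.77 (SE 0.15) on the log2 scale with an adjusted p of 0.0351 by limma, and the call was lost without WT replicate 1 or 2 (0.237 and 0.209), with absent peaks set to the lowest value (0.0586) and with stricter peaks (0.0643). At the second (chr4:136716329-136717276) neither WT library had a peak and the Tcf4 cKO libraries had 7.18 and 5.56. The authors' mean was 4.06 in WT and 6.69 in Tcf4 cKO, and this difference of 2.63 was the highest of the 147 regions. H3K4me1 was also called there in Tcf4 cKO alone (3.83 and 3.66), while neither H3K4me1 nor H3K27ac was called at the first site in any library. No Tcf4 region lay on either.

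The sequences at the centres of the Ephb2 pair, chosen after their values were seen, are given so that the sites can be found and compared, in lower case because neither holds an E-box core (CANNTG), the motif bHLH factors bind. Both are from the plus strand of GRCm38 (mm10).
Ephb2 intron, lower in Tcf4 cKO, chr4:136712177-136712327: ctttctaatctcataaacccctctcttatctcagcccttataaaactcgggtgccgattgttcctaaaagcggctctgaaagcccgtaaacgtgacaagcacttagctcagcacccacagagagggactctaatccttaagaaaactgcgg
Ephb2 intron, peak in Tcf4 cKO alone, chr4:136716728-136716878: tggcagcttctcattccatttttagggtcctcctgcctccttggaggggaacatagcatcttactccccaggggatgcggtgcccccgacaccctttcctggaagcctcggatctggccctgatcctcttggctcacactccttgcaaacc

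Epha4, which binds ephrins of both classes, had the one member region with ATAC-seq peaks in WT alone. This exonic region (chr1:77506147-77506638) had 5.99 and 6.91 in WT, none in Tcf4 cKO, and a difference in the means of -1.43. At another site inside the gene, H3K4me1 (4.74 and 2.77) and H3K27ac (4.15 and 4.23) were both called in Tcf4 cKO alone, on a region assigned to the microRNA gene Mir6352. Accessibility of that region was 7.64 and 7.18 in WT and 8.04 and 8.96 in Tcf4 cKO, with a difference in the means of 0.70 and an adjusted p of 0.446. The Ephb4 promoter, of the receptor for Efnb2, had 5.13 and 5.10 in WT and 5.69 and 6.01 in Tcf4 cKO, a difference of 1.09 in the means and an adjusted p of 0.456.

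In all, 1 member region had its peaks in WT alone, beside 1.02% of all consensus regions. Another 2, those of Sema3a and Ephb2, had them in Tcf4 cKO alone, beside 0.56% of all regions. None of the 8 neuropilin regions passed 0.5 in either direction, beside 12.6% lower and 8.38% higher of all consensus regions. Of the 14 regions assigned to ephrins only 1 did, in an intron of Efna5, a GPI-anchored ligand of EphA receptors, with a difference of -0.57. Its peak heights of 10.0 and 10.9 in WT and 9.83 and 10.7 in Tcf4 cKO overlapped. Regions inside Nrp1 and Efna5 that were not assigned to them are given below.

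**Figure D2:**
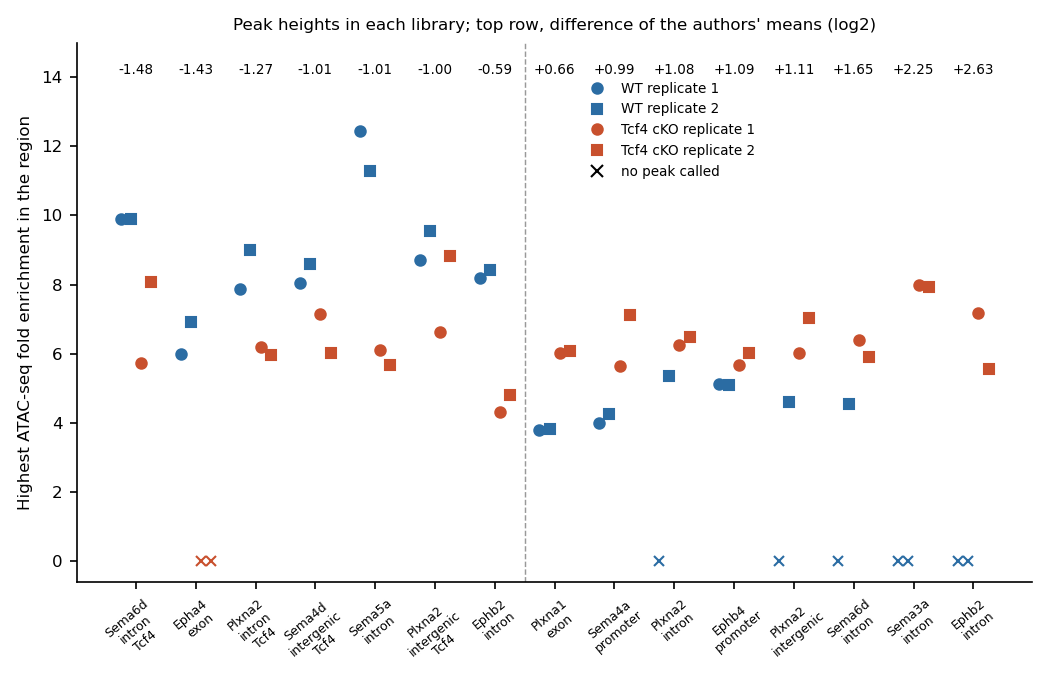
Highest ATAC-seq fold enrichment in each library for the 6 largest falls, the 6 largest rises and the regions of Ephb2, Plxna1 and Sema4a named for their test. Blue points are WT, red points Tcf4 cKO, crosses at 0 mark a library with no peak, and the top row gives the difference of the authors' means (log2). The 2 libraries of a genotype lie close together at Sema5a, the first Ephb2 site and Plxna1, and 5 of the 6 largest rises, all but the Ephb4 promoter, lack a peak in at least 1 WT library.

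Some sites inside the members are filed under other genes. Beyond the 147 regions, 36 consensus regions lay in the windows of 19 members but were assigned to a different gene or, for 17 of them, to none, and 29 of the 36 lay within the member's body. By the authors' means 6 (16.7%) were lower by more than 0.5 and 4 (11.1%) were higher, beside 12.6% and 8.38% of all consensus regions. Tcf4 was held by 4 of the 6 lower and 0 of the 4 higher ones. Over all consensus regions it was held by 1596 of 4042 lower and 132 of 2691 higher ones. In an intron of Nrp1, the co-receptor for Sema3a, a region assigned to Mir1903 (chr8:128483115-128483909) had 10.5 and 10.8 in WT and 7.14 and 8.80 in Tcf4 cKO. The genotypes did not overlap, the difference in the means was -1.27 and the adjusted p by limma was 0.366. H3K4me1 was called on it in WT alone (3.73 and 6.62). In an intron of Sema5b, a transmembrane semaphorin, fold enrichment was 7.56 and 6.4 in WT against 3.69 and 4.78, with a difference of -1.09 and an adjusted p of 0.106. Tcf4 covered 69.8% of the Nrp1 region and 100% of the Sema5b region. An unassigned region in an intron of Efna5 (chr17:62659422-62660431) held no Tcf4 and was higher by 1.13 in the authors' means. Its peak heights of 6.72 and 9.33 in WT and 8.33 and 10.2 in Tcf4 cKO overlapped, with an adjusted p of 0.486 by limma.

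Tcf4 itself was found at most of these genes. A reproducible Tcf4 region, merged from overlapping peaks of both Tcf4-tag libraries, lay in the windows of 34 of the 53 members (64.2%), beside 48.5% of all protein-coding genes. The members' windows are long, with a median of 46.9 kb against 27.4 kb, and they held 0.716 regions per 100 kb against 1.13 over all genes. By family the counts were 15 of 20 semaphorins, 4 of 9 plexins, 2 of 2 neuropilins, 8 of 14 Eph receptors and 5 of 8 ephrins. Sema5b and Sema6d each held 4 regions, and Sema5a, Sema6a, Ephb2 and Plxna2 each held 3. The strongest lay in introns of Sema5a (fold enrichment 8.96 and 9.64), Efna5 (8.10 and 10.4) and Sema6d (8.25 and 8.97), followed by Sema3e (10.3 and 5.68), Nrp2 (7.63 and 7.47) and Nrp1 (5.87 and 7.11). The libraries lay close together at Nrp2 and far apart at Sema3e, a secreted semaphorin that binds Plxnd1.

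As across the genome, the members' distal regions with Tcf4 were more often lower than higher in Tcf4 cKO. Tcf4 was mapped only in Tcf4-tag cells and not in Tcf4 cKO, so sites open in Tcf4 cKO alone were unlikely to enter this set. Over all regions with Tcf4, 72 had ATAC-seq peaks in WT alone and 0 in Tcf4 cKO alone. The split by direction is thus partly fixed by how the set was chosen, and it is a description and not a test. Tcf4 covered at least 30% of 44 of the 147 regions (29.9%, beside 36.3% of all consensus regions). Of the 23 that were not promoters, 6 were lower by more than 0.5 and 1 was higher. This is 26.1% and 4.35%, beside 33.2% and 2.33% of all distal regions with Tcf4. Of the 69 distal member regions without Tcf4, 11 (15.9%) were lower and 10 (14.5%) higher, beside 15.7% and 16.6% of all distal regions without Tcf4. Counting every Tcf4 region in the windows, 51 of 54 lay on a consensus region, and 33 of these (64.7%) had a difference below the median of all consensus regions, beside 64.5% of all 11857 such Tcf4 regions. By more than 0.5, 9 (17.6%) were lower and 2 (3.92%) higher, beside 13.5% and 1.14%. The 2 were in Sema6d and Sema4b. None of the 3 member regions called by limma held Tcf4, beside 76 of the 236 lower and 3 of the 178 higher calls over all regions.

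**Figure D3:**
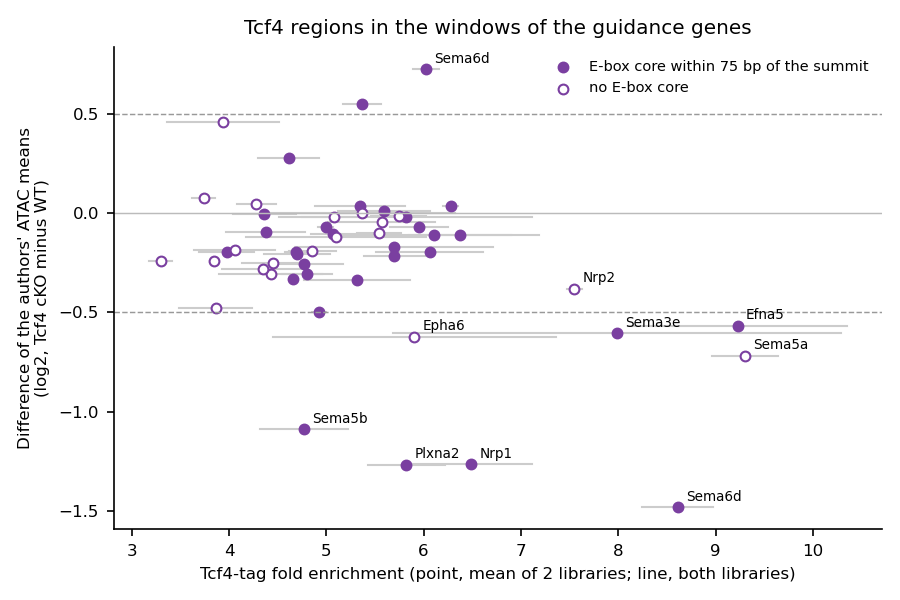
Tcf4-tag fold enrichment (horizontal axis, mean of 2 libraries, with a line joining them) against the difference of the authors' ATAC-seq means (vertical axis, log2, Tcf4 cKO minus WT) for the 51 Tcf4 regions on consensus regions. Filled points have an E-box core within 75 bp of the summit. The 5 strongest regions, of Sema5a, Efna5, Sema6d, Sema3e and Nrp2, all lie below 0. So do 41 of the 51 regions (80.4%), beside 81.6% of all 11857 Tcf4 regions on consensus regions.

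The E-box CANNTG, the core that bHLH dimers recognise, was searched within 75 bp of each Tcf4 summit. It reads the same on both strands in CAGCTG, while CAGGTG was also counted as CACCTG, and both are forms of the general core. Any CANNTG was present at 33 of the members' 54 regions (61.1%, beside 46.6% of all 14085 reproducible Tcf4 regions and 51.3% of consensus regions without Tcf4). CAGCTG was present at 10 (18.5%, beside 14.8% and 11.9% of these sets) and CAGGTG at 5 (9.26%, beside 11.3% and 7.95%). The matches are descriptions of sequence and not tests of binding.

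The sequences around the summits of the lower regions with Tcf4 are shown because they lie at sites with both a Tcf4 peak and a lower accessibility value, and those of Sema5a, Efna5 and Nrp1, chosen after their values were seen, because Tcf4 was strong there. Each is the summit and 75 bp on both sides, on the plus strand of GRCm38 (mm10), with E-box cores in capitals, and none lies in an exon.
Sema6d intron, chr2:124429896-124430046: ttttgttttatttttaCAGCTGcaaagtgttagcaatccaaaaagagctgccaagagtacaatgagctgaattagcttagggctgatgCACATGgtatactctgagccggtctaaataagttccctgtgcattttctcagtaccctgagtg
Plxna2 intron, chr1:194742911-194743061: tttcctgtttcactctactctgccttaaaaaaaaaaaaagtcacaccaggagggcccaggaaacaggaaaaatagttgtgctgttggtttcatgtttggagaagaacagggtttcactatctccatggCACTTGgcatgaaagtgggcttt
Sema4d upstream, chr13:51816582-51816732: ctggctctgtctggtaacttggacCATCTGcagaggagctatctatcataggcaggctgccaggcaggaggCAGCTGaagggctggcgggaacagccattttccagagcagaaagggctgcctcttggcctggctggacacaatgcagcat
Plxna2 upstream, chr1:194208029-194208179: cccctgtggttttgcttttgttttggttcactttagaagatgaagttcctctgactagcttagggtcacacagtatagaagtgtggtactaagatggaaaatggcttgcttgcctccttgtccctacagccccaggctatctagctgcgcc
Sema5a intron, chr15:32611083-32611233: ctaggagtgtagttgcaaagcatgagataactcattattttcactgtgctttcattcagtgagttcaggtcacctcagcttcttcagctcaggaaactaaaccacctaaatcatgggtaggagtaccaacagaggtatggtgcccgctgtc
Efna5 intron, chr17:62862698-62862848: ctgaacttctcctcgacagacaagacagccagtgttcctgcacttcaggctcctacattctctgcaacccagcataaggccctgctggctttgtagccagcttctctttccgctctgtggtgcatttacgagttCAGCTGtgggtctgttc
Nrp1 intron, chr8:128483446-128483596: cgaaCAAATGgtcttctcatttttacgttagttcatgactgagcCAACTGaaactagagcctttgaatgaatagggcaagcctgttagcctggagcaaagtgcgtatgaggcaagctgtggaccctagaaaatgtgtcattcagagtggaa

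The Sema6d and Sema4d windows each had 2 cores, one of them CAGCTG, and the Efna5 window had the single core CAGCTG. The Nrp1 window held CAAATG and CAACTG, and the Plxna2 intron held CACTTG. The upstream Plxna2 window and that of Sema5a, the strongest region of the set, held none.

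In WT, H3K27ac, a mark of active promoters and enhancers, lay at most semaphorin and most Eph receptor promoters. H3K27me3, the Polycomb mark of silent genes, lay at many Eph receptor promoters as well. A promoter is taken as 1 kb on each side of any annotated start, and a mark as present when both libraries of a genotype had a peak. H3K27me3 was present at 16 of 53 members (30.2%) in WT, beside 16.4% of all protein-coding genes, and at 16 in Tcf4 cKO, beside 16.6%. Of the 16 in WT, 8 were Eph receptors, 3 semaphorins, 2 plexins, 2 ephrins and 1 a neuropilin. H3K27ac was present at 36 members (67.9%) in WT, beside 53.0% of genes, and at 33 (62.3%) in Tcf4 cKO, beside 50%. Of the 36 in WT, 16 were semaphorins, 10 Eph receptors, 5 plexins, 4 ephrins and 1 a neuropilin. In WT 5 Eph receptors had both marks. No test was made of these shares, and genes of a family are not replicates.

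In WT 26 members had H3K27ac alone, 6 had H3K27me3 alone (Efna3, Efna5, Epha7, Epha8, Ephb4 and Plxnd1), 10 had both and 11 had neither. The 10 with both, in a mixed cell population, were Epha2, Epha3, Epha6, Epha10, Ephb6, Nrp2, Plxna2, Sema3f, Sema4b and Sema6c. In Tcf4 cKO 38 members had the same state and 15 (28.3%) another, beside 15.3% of all protein-coding genes. Of the 15 differences, 11 rested on a single library.

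**Figure D4:**
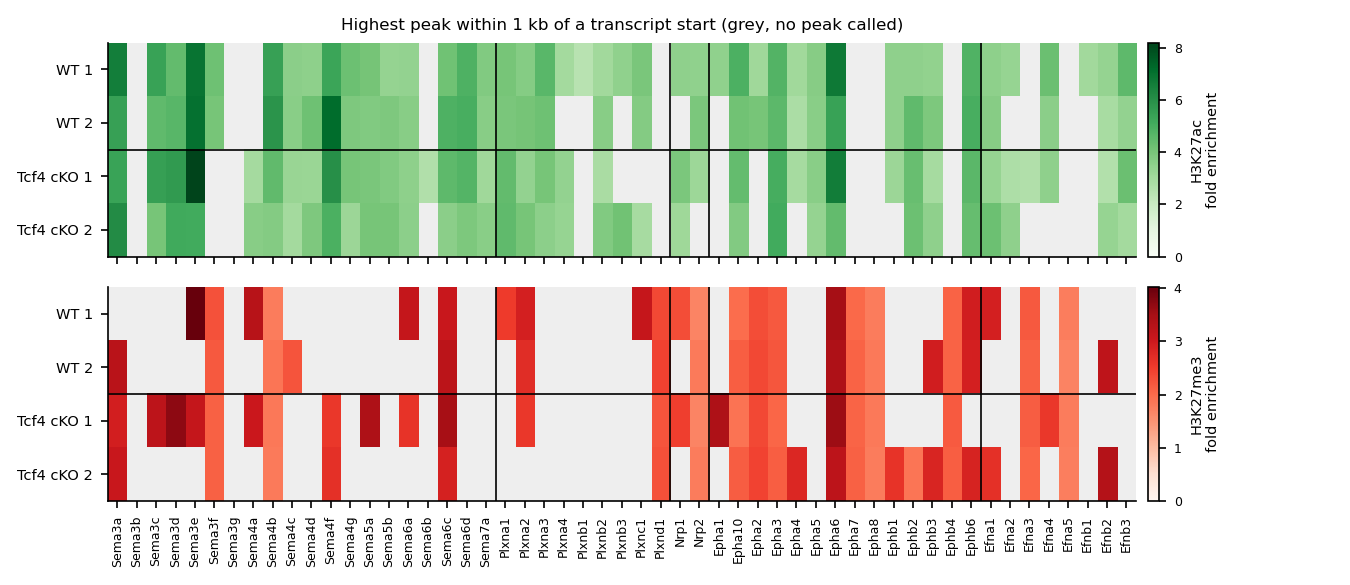
Highest H3K27ac (green) and H3K27me3 (red) fold enrichment within 1 kb of a transcript start for the 53 members (columns, by family) in each library (rows). Grey cells had no peak. H3K27ac covers most members in all libraries, and H3K27me3 gathers at the Eph receptors, several of which also have H3K27ac.

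In the other 4 (7.55%, beside 4.99% of all genes) both libraries of a genotype had the mark and neither of the other genotype did. Epha2, an EphA receptor, had promoter H3K27ac of 3.10 and 4.01 in WT and none in Tcf4 cKO, with H3K27me3 in all 4 libraries from 2.32 to 2.44. Sema3f, a secreted ligand of Nrp2, had H3K27ac of 4.21 and 4.02 in WT and none in Tcf4 cKO, again with H3K27me3 throughout. Sema4a had H3K27ac in Tcf4 cKO alone, as given above. Sema4f, a transmembrane semaphorin, kept H3K27ac from 4.92 to 7.15 in all libraries and had H3K27me3 of 2.57 and 2.66 in Tcf4 cKO alone.

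H3K27ac was missing from one of the Tcf4 cKO libraries at Efna4, Epha4, Ephb1, Nrp2 and Plxnc1, and from one of the WT libraries at Efna2, Nrp1 and Plxna4. At Ephb1 it was 3.48 and 3.48 in WT, 3.20 in Tcf4 cKO replicate 1 and not called in replicate 2. H3K27me3 was missing from 1 Tcf4 cKO library at Ephb6 and Plxna2. At Sema3a it was called in both Tcf4 cKO libraries (2.92 and 3.05) and in WT replicate 2 alone (3.24).

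H3K27me3 also forms wide domains, described here by the share of each window that its peaks cover. Genotypes were compared after scaling the cover to equal totals across the libraries, and the shares printed per library are unscaled. Of the 53 members 43 had any cover. Both Tcf4 cKO libraries lay below both WT libraries at 5 members (Efna5, Epha7, Plxna2, Plxnc1 and Sema4b), beside 15.2% of the 11015 genes with cover. Both lay above at 6 (Epha8, Ephb1, Sema3f, Sema4f, Sema5b and Sema6a), beside 16.6%. These are 11.6% and 14% of the 43 members with cover, near the background. Of these 11 members 2, Efna5 and Sema4b, did not overlap in the same direction without scaling, in the gene body alone and with stricter peaks as well.

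Sema4b, a transmembrane semaphorin, had the widest WT cover and the largest difference. H3K27me3 covered 21.1% and 21.8% of its window in WT and 16.2% and 9.34% in Tcf4 cKO, and 3 of its H3K27me3 regions were called in WT alone. The scaled mean was 0.563 times that of WT. Its promoter region at chr7:80186387-80187524 had ATAC-seq heights of 6.61 and 7.82 in WT and 9.44 and 8.11 in Tcf4 cKO. The adjusted p by limma was 0.277. H3K27ac there was lower in Tcf4 cKO, at 3.66 and 3.73 against 5.05 and 4.10 (adjusted p 0.817 by limma). A further promoter region, chr7:80197851-80199260, had lower ATAC-seq heights in Tcf4 cKO, 7.46 and 7.36 against 10.3 and 8.67 (adjusted p 0.575 by limma). The authors' means were higher in Tcf4 cKO at both regions, by 0.55 and 0.28. Unlike at Sema4b, cover at Sema3f was wider in Tcf4 cKO, at 10.7% and 12.9% against 6.88% and 7.43% in WT, alongside the missing H3K27ac. Its scaled mean was 1.60 times that of WT. With stricter peaks the genotypes overlapped. The height of the H3K27me3 peak at the Sema3f promoter was lower, at 2.27 and 2.20 in WT and 2.09 and 2.09 in Tcf4 cKO (adjusted p 0.428 by limma). Part of the added cover, a region of 2.45 and 2.80 in Tcf4 cKO alone, lay over the neighbouring gene Gnat1.

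At Epha8, an EphA receptor, cover was 14.4% and 14.7% in WT and 22.4% and 15.4% in Tcf4 cKO, so the value was high in a single library. Efna5 had 8.34% and 10.4% against 7.46% and 7.81%. Efna3, Sema6c, Epha10 and Efna4 did not separate the genotypes. In Efna4, for example, cover was 10.4% and 0% in WT and 6.23% and 0% in Tcf4 cKO, and in Efna2 it was 0% and 8.75% against 2.04% and 2.01%.

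**Figure D5:**
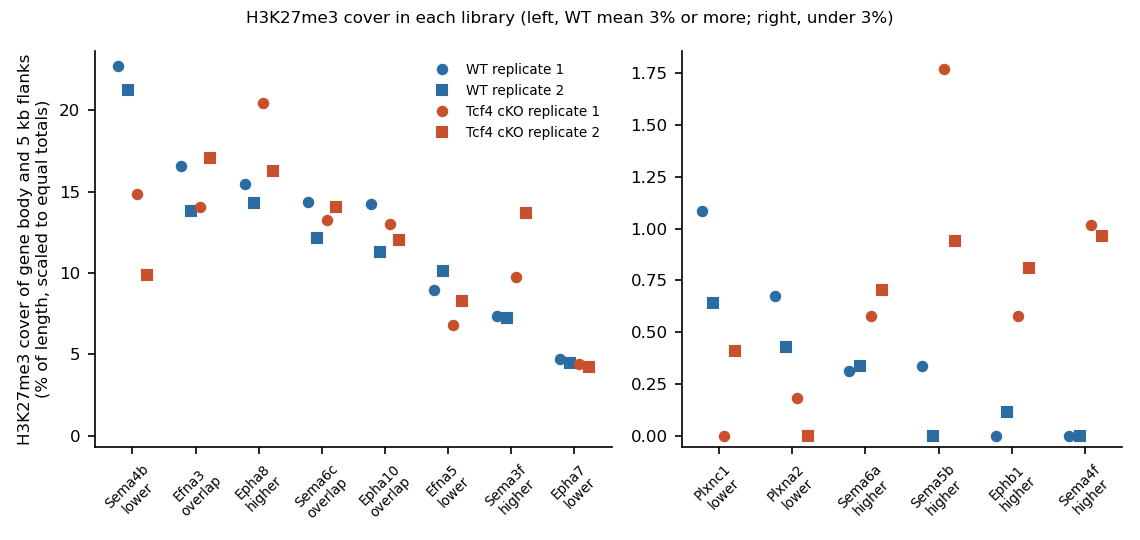
Share of the gene body and 5 kb flanks covered by H3K27me3 peaks (%, scaled to equal totals) in each library, for the members that did not overlap between genotypes and those with the widest WT cover. Each panel has its own vertical scale, and the line under a gene name says whether Tcf4 cKO was lower, higher or overlapping. Sema4b lies lower and Sema3f higher in both Tcf4 cKO libraries.

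No histone mark region passed the test between genotypes, at the members or elsewhere. The limma fit covered 26101 H3K4me1, 13797 H3K27ac and 7800 H3K27me3 regions with peaks in all 4 libraries, with 0.0% called for H3K4me1, 0.0% for H3K27ac and 0.0% for H3K27me3 at an adjusted p under 0.05. The members had 103, 55 and 35 of these regions. At an unadjusted p under 0.05, 8 H3K4me1 regions (7.77%, beside 7.02% of all), 2 H3K27ac regions (3.64% beside 6.73%) and 3 H3K27me3 regions (8.57% beside 15.1%) differed. The lowest adjusted p was 0.530 for H3K4me1, in Epha3, where heights of 4.38 and 4.17 in WT stood against 6.09 and 6.52. For H3K27ac it was 0.646, in Sema6d, with 4.84 and 4.58 against 3.21 and 3.58. For H3K27me3 it was 0.214, again in Epha3, with 2.33 and 2.34 against 2.04 and 2.01.

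Marks called in 1 genotype alone were counted over merged regions. Of 469 H3K4me1 regions in the windows, 9 (1.92%) were in WT alone and 28 (5.97%) in Tcf4 cKO alone, beside 2.64% and 7.51% of all merged regions. The Tcf4 cKO H3K4me1 lists were longer throughout, with 72788 and 65047 peaks against 51507 and 59523. Of 180 H3K27ac regions, 12 (6.67%) were in WT alone, at 10 members, and 4 (2.22%) in Tcf4 cKO alone, beside 4.24% and 2.53%. Of 122 H3K27me3 regions, 6 (4.92%) were in WT alone and 8 (6.56%) in Tcf4 cKO alone, beside 4.05% and 5.36%. The H3K27ac regions in WT alone lay at Efna5, Epha2, Epha10, Ephb1, Ephb2, Plxna2, Sema3d, Sema3f, Sema5b and Sema6a, and 9 of them sat on a consensus ATAC-seq region, of which 1, in Sema3d, was lower by more than 0.5. Those in Tcf4 cKO alone lay at Epha4, Sema4a, Sema6d and Sema7a.

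The 50 companion genes of these pathways are given for comparison. They include adaptors, GTPase regulators and cytoskeletal effectors that act below plexins and Eph receptors, and cell-surface proteins such as Met and L1cam. They had 207 consensus regions at 49 genes, of which 35 (16.9%) were lower and 25 (12.1%) higher by more than 0.5 in the authors' means, beside 12.6% and 8.38% of all regions. By limma, of 194 regions fitted, 2 fell, in Nck2 and Crmp1, and 2 rose, in Itsn1 and Tiam1, beside 0.777% and 0.586% of all. The largest differences were in Rgs3 (2.08), Ngef (1.87), Vav2 (-1.72) and Kalrn (-1.70). The Kalrn promoter region had 8.29 and 8.81 in WT, 5.10 in Tcf4 cKO replicate 1 and no peak in replicate 2, and Tcf4 covered 94.4% of it.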

How the data were processed

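The members and gene lists were chosen with earlier results of these data known. Genotype, assay and replicate came from the deposited labels. The authors trimmed reads (Trim Galore), aligned them to mm10 (Bowtie 2), removed duplicates and called peaks per library with MACS2, broad for H3K27me3. The deposited peak lists give a fold enrichment (a ratio over local background) and a −log10 q-value. The authors' deposited table of consensus regions (IDR, DiffBind, ChIPseeker) gives a mean log2 signal per genotype. Its fold changes, p-values and FDR, and a table of footprint comparisons, were not used. Peaks on chromosomes 1 to 19, X and Y were kept. GENCODE M21 and GRCm38 gave genes and sequences. Overlaps of at least 1 bp were found with bedtools 2.31.1, and heights tested with limma 3.58.1 (R 4.3.3), where a region needed a peak in all 4 libraries. The fit was tested on simulated data. Labels do not say whether replicates were separate animals, so p-values measure the spread between these libraries, which may be technical. Named were regions called by limma, the 6 largest falls and rises in the means, peaks in 1 genotype alone, changed promoter states, and the widest or most changed H3K27me3 cover and strongest Tcf4. The 2 single-cell libraries were not analysed here.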

Additional observations from a re-analysis of the deposited data

How the results depend on the processing

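Genotypes shared replicate numbers, but deviations of same-numbered libraries were uncorrelated (-0.006 in ATAC-seq to 0.020 in H3K27me3), so the pairing is only a number. With the replicate block the members had 4 called ATAC-seq regions instead of 3, and 0 for each mark as before. Requiring a −log10 q of at least 5 left 0 ATAC-seq calls, 9 regions in one genotype alone (3 otherwise), promoter H3K27me3 at 7 members in WT and 4 in Tcf4 cKO, promoter H3K27ac at 23 and 12, and 7 members with separate H3K27me3 cover (11 otherwise). Regions absent from a library set to its lowest value gave 3 H3K27ac and 14 H3K27me3 calls instead of 0 for each, while calling 8.21% and 20% of all regions fitted, and ended the ATAC-seq calls of Ephb2 and Plxna1. The size limit of 1 left 11 of 32 regions by the authors' means, and 42 passed 0.5 with window regions of other genes, an alternative chosen after seeing the data. Peaks covering at least 50% of a region gave 5 regions in one genotype alone. Within 150 bp of the summit CAGCTG was at 23 regions (42.6%, beside 26.1% of all reproducible Tcf4 regions). CAGGTG was at 11 (20.4%, beside 20.5%). The causes were not tested.

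Leaving out 1 library gave 0 to 4 ATAC-seq calls (0 without WT replicate 1 or 2), 0 calls for each mark, 3 to 7 regions in one genotype alone (7 without WT replicate 2 or Tcf4 cKO replicate 2), promoter H3K27me3 at 20 to 23 members in WT and 23 to 26 in Tcf4 cKO (26 without Tcf4 cKO replicate 2), promoter H3K27ac at 36 to 43 and 35 to 39, 20 to 25 members with separate cover, Tcf4 at 37 to 48 members and CANNTG at 30 to 35 regions. With fewer libraries a mark or a separation is easier to reach by construction. The balance of directions shifted: regions in one genotype alone were 1 in WT and 2 in Tcf4 cKO with all libraries, but 5 and 2 without Tcf4 cKO replicate 2, and separate cover was 5 lower and 6 higher, but 15 and 10 without WT replicate 2. In the settings run, none of the member regions called by limma changed sign. For the largest differences in the means the only other setting was centring on the median of all regions, a shift too small to change their sign. Read depth was not in the files, so the absence of a peak is no measure of absence of signal.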
